A study of Arabidopsis thaliana with 11 samples.

Results

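Expression of 10 flavonoid pathway genes was followed by RNAseq in mature Arabidopsis roots. The genes were chosen by their identifiers: the early enzymes CHS (AT5G13930), CHI (AT3G55120), F3H (AT3G51240) and F3'H (AT5G07990), the flavonol enzymes FLS1 (AT5G08640) and UGT78D2 (AT5G17050), the late enzymes DFR (AT5G42800) and LDOX (AT4G22880), and the regulators MYB12 (AT2G47460) and MYB111 (AT5G49330). They are 10 of the 33341 gene identifiers in the count files, and 8 of them were among the 20718 genes that passed the filter on low counts. F3H and MYB111 did not pass it.

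The study crossed genotype with water supply in soil-grown plants, whose roots were washed in water and frozen. BRL3ox plants express the brassinosteroid receptor BRL3, fused to GFP, from the 35S promoter, which is active in most cells. The paper reports the receptor of this line as enriched in the root vasculature. Which cells overexpressed BRL3 cannot be read from whole roots. WT plants were Columbia-0. The groups were BRL3ox roots after 5 days without water (3 samples), WT roots after 5 days without water (3 samples), well-watered BRL3ox roots (2 samples, labelled replicates 1 and 3) and well-watered WT roots (3 samples). A replicate 2 of the watered BRL3ox roots is not used here. The sources differ on plant age at collection: the design text gives 28 days, the methods give 3 weeks, and the growth protocol gives 7 days on agar and 16 days on soil before the treatment. The design text calls the samples biological replicates, and how many plants went into each is not given in the sources used here.

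Each library had 18610736 to 22817390 reads counted on genes. Values below are normalised counts (CPM, reads scaled to a common library size), in which 1 read was worth 0.0422 to 0.0545 CPM. BRL3 had 2447, 3180 and 2935 CPM in BRL3ox drought roots, against 44.8 to 70.8 CPM in WT drought roots, and 974 and 1652 CPM in BRL3ox control roots, against 59.2 to 64.8 CPM in WT control roots. All 8 root markers examined were detected in every library, except IRT1 in WT drought replicate 3, and their summed level was 2710 to 3920 CPM. Most of that sum was PYK10 (1993 to 3554 CPM), and single markers did change: CASP1 and CASP2 were lower in BRL3ox drought roots (values beside FLS1), the phosphate exporter gene PHO1 fell in drought by 0.90 ± 0.17 SE (log2, FDR 0.00555) in BRL3ox and by 0.98 ± 0.16 SE (FDR 0.00319) in WT roots, and the iron transporter gene IRT1 fell in drought in WT roots by 3.25 ± 0.70 SE (FDR 0.0111). The libraries of a group differed in 10 photosynthesis genes, which mark green tissue: their summed level spanned 15.4 to 373 CPM over the 11 libraries, with LHCB1.1 at 0 in WT drought replicates 2 and 3 and LHCB2.2 at 0 in BRL3ox control replicate 3. The lowest were WT control replicate 3 (15.4 CPM) and BRL3ox control replicate 3 (16.5 CPM), and the highest was WT control replicate 2 (373 CPM). This spread is taken up below, because several flavonoid genes varied with it.

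Flavonoids are phenylpropanoid products. CHS, chalcone synthase, joins a coumaroyl unit with malonyl units, CHI, chalcone isomerase, closes the ring, and F3H and F3'H hydroxylate the flavanone. The pathway then divides. FLS1, flavonol synthase, makes quercetin and kaempferol, which are the main flavonoids of Arabidopsis roots and are known to affect auxin transport there. DFR, dihydroflavonol reductase, and LDOX, leucoanthocyanidin dioxygenase, lead to anthocyanins and, in the seed coat, to proanthocyanidins. UGT78D2 attaches glucose at the C3 position of flavonols and anthocyanidins. MYB12 and MYB111 are R2R3-MYB factors that activate the early and flavonol genes, while the late genes are activated by complexes of the MYB factor PAP1, a bHLH factor such as TT8, GL3 or EGL3, and the WD40 protein TTG1.

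The 250 bases before the annotated start of 4 genes are shown, since CHS, DFR and LDOX varied together across the libraries and FLS1 did not. Capitals mark a G-box (CACGTG) or the bases of a BZR1 site (CGTGTG or CGTGCG, here on the opposite strand). BZR1 is a transcription factor of brassinosteroid signalling. Sequences and coordinates are those of RefSeq's TAIR10.1 annotation, and each is written 5′ to 3′ on the strand of its gene: chr5:4488226-4488475, plus strand, for CHS, chr5:17166033-17166282, minus strand, for DFR, chr4:12006210-12006459, minus strand, for LDOX and chr5:2803583-2803832, plus strand, for FLS1.
CHS: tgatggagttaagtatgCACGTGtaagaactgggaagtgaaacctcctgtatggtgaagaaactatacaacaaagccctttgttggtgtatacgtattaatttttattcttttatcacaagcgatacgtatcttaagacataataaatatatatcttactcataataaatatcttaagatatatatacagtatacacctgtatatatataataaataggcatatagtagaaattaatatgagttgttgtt
DFR: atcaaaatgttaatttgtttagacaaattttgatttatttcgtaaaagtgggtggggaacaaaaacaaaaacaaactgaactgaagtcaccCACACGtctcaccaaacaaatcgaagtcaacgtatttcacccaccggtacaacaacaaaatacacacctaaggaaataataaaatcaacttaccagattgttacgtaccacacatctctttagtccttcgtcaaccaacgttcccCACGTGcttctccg
LDOX: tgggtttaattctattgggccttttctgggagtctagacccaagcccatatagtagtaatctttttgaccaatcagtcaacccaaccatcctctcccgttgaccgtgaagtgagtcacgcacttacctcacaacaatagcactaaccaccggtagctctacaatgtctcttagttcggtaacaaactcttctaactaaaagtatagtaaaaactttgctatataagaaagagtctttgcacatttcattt
FLS1: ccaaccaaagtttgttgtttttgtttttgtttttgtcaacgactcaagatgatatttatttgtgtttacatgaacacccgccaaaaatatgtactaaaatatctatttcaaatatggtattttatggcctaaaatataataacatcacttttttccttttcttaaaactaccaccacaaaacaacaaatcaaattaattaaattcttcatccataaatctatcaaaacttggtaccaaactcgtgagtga

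G-boxes occurred in the windows of 4 of the 10 genes (CHS, F3H, DFR and MYB12), and in 6.49% of 27443 promoters of the same length. In DFR the G-box ended 9 bases before the start, and in CHS it lay at -233 to -228. A BZR1 site occurred in 2 of the 10 (DFR and MYB12, where it overlapped the G-box), against 6.71% of all promoters. The AC element ACCAACC or ACCTACC, a site type of MYB factors, was found on either strand in 0 of the 10 and in 3.79% of all promoters. The LDOX and FLS1 windows held none of these motifs. The matches are letters in a window and say nothing of binding.

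The genes were expressed at low levels. Per kilobase of exon, the median over the 11 libraries was 3.76 CPM for UGT78D2, 1.6 for CHI, 1.34 for CHS, 0.713 for LDOX, 0.624 for FLS1, 0.484 for DFR, 0.394 for F3'H and 0.354 for MYB12. The ranges over the libraries overlapped between all neighbours in this order. For comparison, on the same scale the entry enzymes PAL1 and C4H, phenylalanine ammonia-lyase and cinnamate hydroxylase, which also serve lignin synthesis, had medians of 192 and 331 CPM per kilobase.

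**Figure D1:**
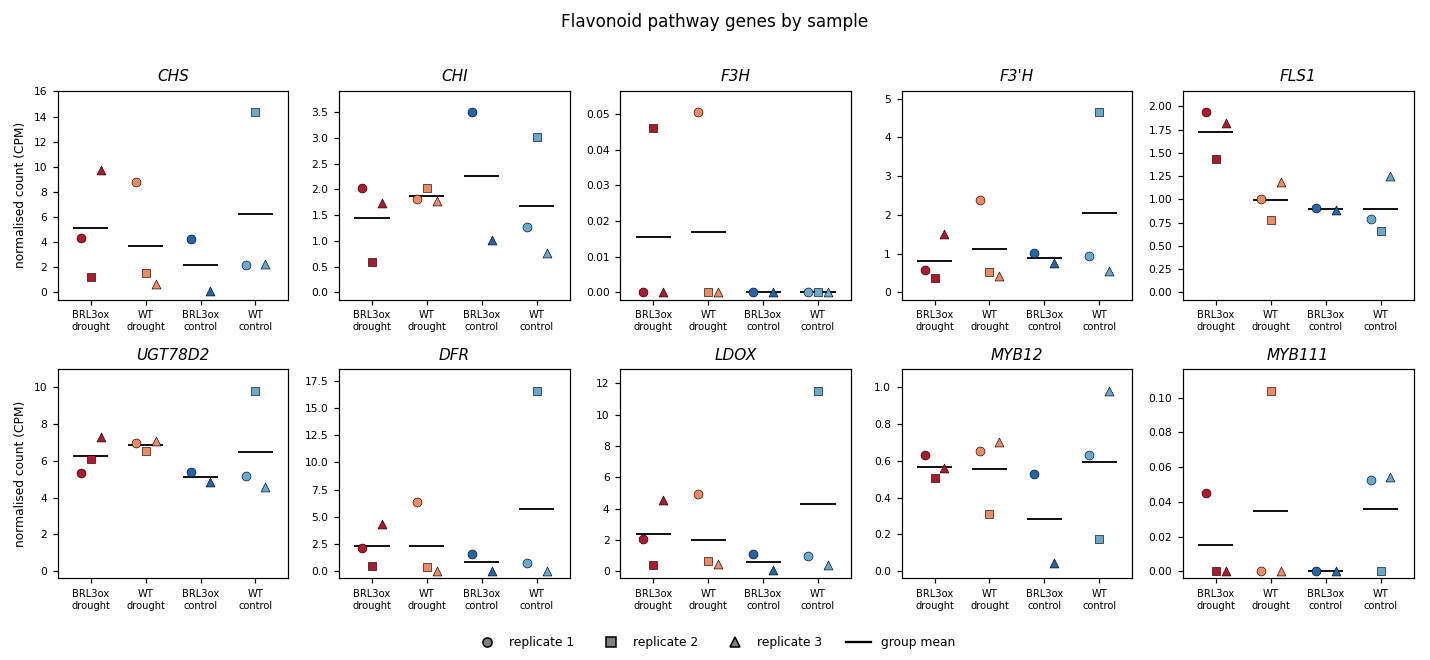
Normalised counts (CPM, linear axis) of the 10 flavonoid genes in each sample by group, with the replicate number as the symbol and the group mean as a bar. The axes differ between genes. WT control replicate 2 stands highest for CHS, F3'H, UGT78D2, DFR and LDOX, while the 3 BRL3ox drought samples stand above all others for FLS1.

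None of the 8 genes tested passed the thresholds of a false discovery rate (FDR) under 0.05 and a fold change over 1.5 in the comparisons of BRL3ox with WT, which ask what BRL3 overexpression changed in drought and in watered roots. In drought roots 0 of 8 passed, where 3.51% of all genes tested did, and in control roots 0 of 8 passed, where 0.772% did. At an unadjusted p under 0.05 the numbers were 1 of 8 in drought roots (FLS1), with 23.1% of all genes, and 0 of 8 in control roots, with 16% of all genes. With DESeq2 and edgeR's likelihood ratio test 0 of 8 passed in either. The median log2 fold change of the 8 was 0.02 in drought roots and -1.15 in control roots, with 0 for all genes in both. In the drought responses, 0 of 8 passed in BRL3ox roots, where 16.1% of all genes did, and 0 of 8 in WT roots, where 12.4% did. At an unadjusted p under 0.05 they were 1 of 8 (FLS1) in BRL3ox roots, with 35.1% of all genes, and 0 of 8 in WT roots, with 33.6%. The median was 0.99 in BRL3ox roots and -0.42 in WT roots, with -0.02 for all genes in both. The drought responses of the genotypes were compared by their interaction at an unadjusted p under 0.0025, which 0 of 8 passed, with 0.951% of all genes, and 0 of 8 lay under 0.05, with 10.8%. These shares of the members are at or below those of all genes. The comparisons share samples, so these counts are not independent of each other.

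**Figure D2:**
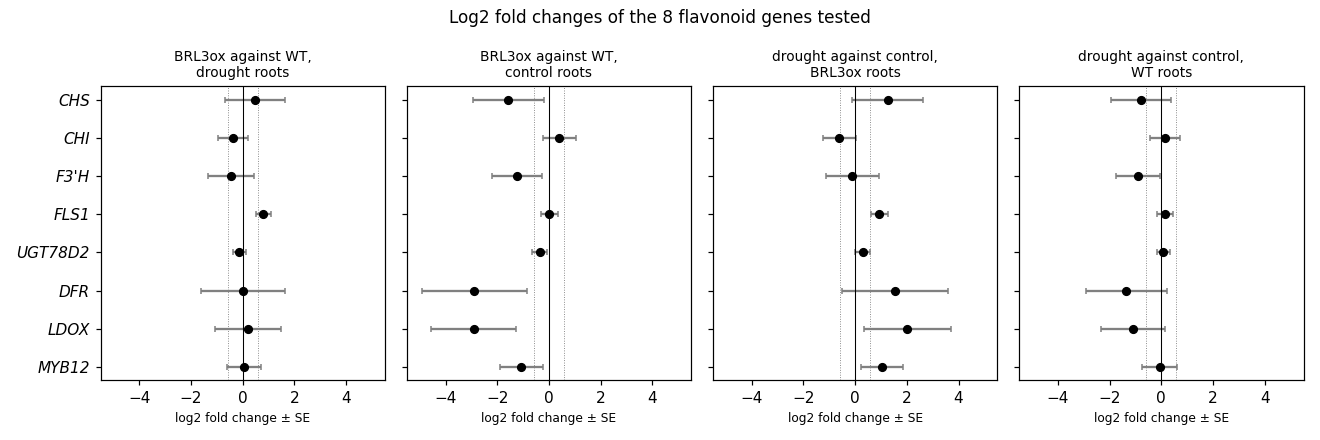
Log2 fold change (points) with its standard error (bars) for the 8 flavonoid genes tested, in 4 comparisons of edgeR's quasi-likelihood fit. The solid line marks no change and the dotted lines a fold change of 1.5. FLS1 has short bars above 0 in drought roots and in BRL3ox roots, whereas the bars of DFR reach 2.03 on either side of -2.89 in control roots.

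FLS1 was the member with the clearest difference between groups. It had 1.94, 1.43 and 1.82 CPM in BRL3ox drought roots, against 1.01, 0.779 and 1.19 CPM in WT drought roots. In watered roots it had 0.910 and 0.886 CPM in BRL3ox roots, against 0.788, 0.664 and 1.25 CPM in WT roots. All 3 BRL3ox drought samples lay above all 8 others, and the other 3 groups overlapped. The share of all genes with this pattern was not determined, so it is a description only. These levels rested on 31 to 43 reads per sample in BRL3ox drought roots, against 15 to 22 in WT drought roots, and on 19 and 21 reads in BRL3ox control roots.

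FLS1 was 1.74-fold higher in BRL3ox than in WT drought roots (log2 fold change 0.80 ± 0.28 SE, 95% interval 0.17 to 1.43). Its FDR was 0.125 by edgeR's quasi-likelihood test, so it did not pass, and the FDR was 0.0706 to 0.16 under the other settings and 0.0791 to 0.279 with each library left out in turn. The groups did not overlap, with BRL3ox higher, as was the case for 14.0% of all genes tested. In BRL3ox roots, FLS1 was 1.92-fold higher in drought than in control samples (log2 0.94 ± 0.32 SE, 95% interval 0.23 to 1.65), with an FDR of 0.0601 by the same test. Here, too, the groups did not overlap, with drought higher, as for 27.6% of all genes tested.

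This drought response lay close to the threshold, and some other settings put it past. Among them, the FDR was 0.0288 with edgeR's likelihood ratio test, 0.0408 with at least 10 counts required in every sample, 0.0487 in a model of only the 2 groups and 0.0193 with the photosynthesis score as a covariate. In the other settings it was up to 0.0795, and with 1 library left out it was 0.0347 (without WT control replicate 3) to 0.228. In WT roots the drought response of FLS1 was 0.15 ± 0.30 SE on the log2 scale (95% interval -0.52 to 0.81, FDR 0.771). The difference between the responses of the genotypes was 0.79 ± 0.44 SE, with a 95% interval of -0.18 to 1.77 and an unadjusted p of 0.0996 by edgeR's quasi-likelihood test (FDR 0.546). The responses were therefore not shown to differ. In control roots, FLS1 differed between BRL3ox and WT by 0.01 ± 0.33 SE (log2), with a 95% interval of -0.73 to 0.74.

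Other signals that varied with these groups are given beside FLS1. The summed level of 7 touch and wound genes, all detected in every library, was 4950 to 5490 CPM in BRL3ox drought roots, 5120 to 7470 CPM in WT drought roots, 1770 to 2220 CPM in BRL3ox control roots and 2550 to 4890 CPM in WT control roots. It thus differed between drought and control in BRL3ox roots as FLS1 did, and its part in the FLS1 response was not tested. CASP1 and CASP2, which encode Casparian strip proteins of the endodermis, differed in the comparisons in which FLS1 was higher, in the other direction. CASP1 had 25.05 to 40.07 CPM in BRL3ox drought roots, 52.26 to 75.52 CPM in WT drought roots, 60.08 and 60.72 CPM in BRL3ox control roots and 52.16 to 78.97 CPM in WT control roots. Between BRL3ox and WT drought roots the log2 fold change was -0.91 ± 0.21 SE for CASP1 (FDR 0.0383) and -0.95 ± 0.20 SE for CASP2 (FDR 0.0284), and in the drought response of BRL3ox roots -0.88 ± 0.23 SE (FDR 0.0203) and -0.93 ± 0.22 SE (FDR 0.0128). Of the other root markers, COBL9 (-0.83 ± 0.23 SE, FDR 0.0657), EXPA7 (-0.84 ± 0.30 SE, FDR 0.129) and PYK10 (-0.09 ± 0.20 SE) were lower in BRL3ox than in WT drought roots, without passing. MYB36 (0.22 ± 0.12 SE), PHO1 (0.37 ± 0.16 SE) and IRT1 (1.27 ± 0.74 SE) were higher there, without passing. In the drought response MYB36 changed by -0.36 ± 0.13 SE in BRL3ox and -0.41 ± 0.12 SE in WT roots. What part the marker differences had in the FLS1 values was not tested. The summed photosynthesis level was 71.6 to 93.3 CPM in BRL3ox drought roots, 31.3 to 184 CPM in WT drought roots and 129 and 16.5 CPM in BRL3ox control roots, and with that score in the model FLS1 was higher by 1.08 (log2) in the drought response of BRL3ox roots. In whole roots, fewer cells of a type and less RNA per cell cannot be told apart.

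UGT78D2 was the most abundant member and the steadiest beside FLS1. It had 5.36, 6.09 and 7.29 CPM in BRL3ox drought roots, against 6.96, 6.55 and 7.08 CPM in WT drought roots. Watered BRL3ox roots had 5.37 and 4.85 CPM, against 5.15, 9.79 and 4.57 CPM in watered WT roots. The groups overlapped in all 4 comparisons, and WT control replicate 2 had the highest value. The log2 difference between BRL3ox and WT was -0.14 ± 0.25 SE in drought roots (95% interval -0.70 to 0.43) and -0.36 ± 0.29 SE in control roots (95% interval -0.99 to 0.28). The drought response was 0.29 ± 0.29 SE in BRL3ox and 0.07 ± 0.25 SE in WT roots, with FDRs of 0.51 and 0.877. Of its 45-base stretches, 0.381% also occur in AT5G17040.

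CHS, the entry enzyme of the pathway, varied widely within every group. It had 4.37, 1.25 and 9.72 CPM in BRL3ox drought roots, against 8.78, 1.56 and 0.648 CPM in WT drought roots. It had 4.26 and 0.0844 CPM (89 and 2 reads) in BRL3ox control roots, against 2.15, 14.3 and 2.29 CPM in WT control roots. Each of the 4 groups thus held libraries that differed from each other, by 6.66-fold in WT control roots and by more in the other groups. The log2 difference between BRL3ox and WT was 0.47 ± 1.16 SE in drought roots and -1.57 ± 1.38 SE in control roots, and the drought response was 1.26 ± 1.38 SE in BRL3ox and -0.78 ± 1.15 SE in WT roots (FDR 0.556 to 0.847 over these 4 comparisons). Without BRL3ox control replicate 1 these were -6.14 in control roots and 5.82 in the BRL3ox drought response, and without WT control replicate 2 the difference in control roots was -0.06.

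CHI had 2.03, 0.600 and 1.73 CPM in BRL3ox drought roots, against 1.82, 2.03 and 1.78 CPM in WT drought roots. In watered roots it had 3.50 and 1.01 CPM in BRL3ox, against 1.26, 3.01 and 0.762 CPM in WT. The 3 WT drought samples were close together, and all groups overlapped. The drought difference between BRL3ox and WT was -0.37 ± 0.59 SE (log2, FDR 0.753) and the drought response of BRL3ox roots -0.62 ± 0.64 SE (FDR 0.528).

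F3'H, which sets the quercetin branch apart from kaempferol, had 0.586, 0.369 and 1.5 CPM in BRL3ox drought roots, against 2.37, 0.520 and 0.432 CPM in WT drought roots. Watered BRL3ox roots had 1.01 and 0.760 CPM, against 0.945, 4.65 and 0.545 CPM in watered WT roots. As for CHS, WT control replicate 2 and WT drought replicate 1 were the 2 highest libraries in their groups. The difference between BRL3ox and WT was -1.24 ± 0.97 SE (log2) in control roots and -0.45 ± 0.90 SE in drought roots, with FDRs of 0.599 and 0.806.

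F3H had 1 read in BRL3ox drought replicate 2, 1 in WT drought replicate 1 and 0 in the other 9 libraries. This number cannot be read as the expression of F3H. In the TAIR10.1 annotation, F3H lies at chr3:19025192-19026872 on the plus strand, and 93.8% of its exonic bases lie under exons of AT3G51238, a long non-coding RNA gene on the minus strand, which itself had 1 read over the 11 libraries. Of 509 protein-coding genes with at least 90% of their exonic bases under exons of the opposite strand, 498 (97.8%) had at most 11 reads over the 11 libraries, with a median of 0. Of the 20840 protein-coding genes with no such base, 4417 (21.2%) had at most 11 reads and the median was 1610. The share of reads that were set aside as ambiguous between genes was 2.95 to 3.31% per library. The strand setting of the counting is not given in the sources used here. The other 9 members had at most 0.117% of their exonic bases under exons of the opposite strand.

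The late enzymes had the largest spread. DFR had 2.16, 0.507 and 4.30 CPM in BRL3ox drought roots, against 6.36, 0.416 and 0.054 CPM in WT drought roots. It had 1.63 and 0 CPM in BRL3ox control roots, against 0.735, 16.6 and 0 CPM in WT control roots. In reads, these were 34 and 0 in BRL3ox control roots, against 14, 374 and 0 in WT control roots. At these depths, 0 reads allow up to 0.127 CPM in BRL3ox control replicate 3 and 0.163 CPM in WT control replicate 3 (3 reads, counting error only). Replicate 2 of the watered WT roots thus held 374 of the 388 DFR reads of its group.

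DFR differed between BRL3ox and WT control roots by -2.89 ± 2.03 SE on the log2 scale (95% interval -7.37 to 1.60, FDR 0.549), and by 1.07 in the opposite direction without WT control replicate 2. In drought roots the difference was 0.02 ± 1.62 SE (95% interval -3.56 to 3.59, FDR 0.998). The drought response was 1.55 ± 2.05 SE in BRL3ox and -1.35 ± 1.55 SE in WT roots, with FDRs of 0.631 and 0.586, and without WT control replicate 2 the WT response was 2.6. The intervals are wide enough to hold large changes in both directions, so no statement on DFR between groups is possible at this spread.

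LDOX followed the same libraries. It had 2.07, 0.415 and 4.58 CPM in BRL3ox drought roots, against 4.94, 0.675 and 0.432 CPM in WT drought roots. Watered BRL3ox roots had 1.1 and 0.0844 CPM, against 0.998, 11.5 and 0.381 CPM in watered WT roots. The order of the 3 libraries within each group was that of DFR. The difference between BRL3ox and WT was -2.91 ± 1.65 SE (log2) in control roots (95% interval -6.57 to 0.74, FDR 0.434) and -0.26 without WT control replicate 2. In drought roots it was 0.21 ± 1.27 SE (FDR 0.941). Of the 45-base stretches of LDOX, 4.05% also occur in AT4G22870. Reads without a unique alignment were a separate class (1364469 to 1876030 per library) and were not counted on genes. The LDOX count could therefore miss a small part of its reads.

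MYB12 had 0.631, 0.507 and 0.561 CPM in BRL3ox drought roots, against 0.656, 0.312 and 0.702 CPM in WT drought roots. It had 0.527 and 0.0422 CPM in BRL3ox control roots, against 0.630, 0.177 and 0.980 CPM in WT control roots. These were 1 to 18 reads, and WT control replicate 2, the highest library for CHS and DFR, was the lowest WT library for MYB12. The log2 difference between BRL3ox and WT was 0.03 ± 0.66 SE in drought and -1.07 ± 0.82 SE in control roots (FDR 0.987 and 0.593). The difference in control roots was -3.61 without BRL3ox control replicate 1 and -0.15 without BRL3ox control replicate 3. MYB111 had 1 read in BRL3ox drought replicate 1, 2 in WT drought replicate 2, 1 each in WT control replicates 1 and 3, and 0 elsewhere. MYB111 was thus found only at a trace, with too few reads to compare groups, and it does not overlap another gene.

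How far the members spread within groups was set against all genes. The pooled standard deviation within groups, on the log2 CPM scale, was 2.83 for DFR, 1.94 for LDOX, 1.93 for CHS, 1.15 for F3'H, 0.85 for MYB12, 0.82 for CHI, 0.34 for UGT78D2 and 0.30 for FLS1, with a median of 0.19 over the 20718 genes. That of DFR was above that of 100% of the genes (rounded), LDOX and CHS above 99.9%, F3'H above 99.4%, MYB12 above 98.2%, CHI above 98%, UGT78D2 above 76.3% and FLS1 above 71.2%. Genes with few reads spread more on this scale, and the members have few.

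The members with a wide spread varied together. Over the 11 libraries, Pearson's r of log2 CPM was 0.95 between DFR and LDOX, 0.93 between CHS and LDOX, 0.88 between CHS and DFR, 0.83 between F3'H and LDOX and 0.80 between F3'H and DFR. As deviations from the group means, in which the genotype and water supply play no part, DFR and LDOX had an r of 0.97 and CHS and DFR 0.89. FLS1 did not belong to this set, with r of -0.04 with DFR, 0 with LDOX and 0.10 with CHS. As deviations, its r was -0.45 with DFR, -0.28 with LDOX and -0.12 with CHS. MYB12, an activator of CHS and FLS1, had r of 0.38 with CHS, 0.48 with FLS1 and 0.02 with DFR. These correlations are descriptions over 11 libraries, and the points of each pair share a library and its depth.

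**Figure D3:**
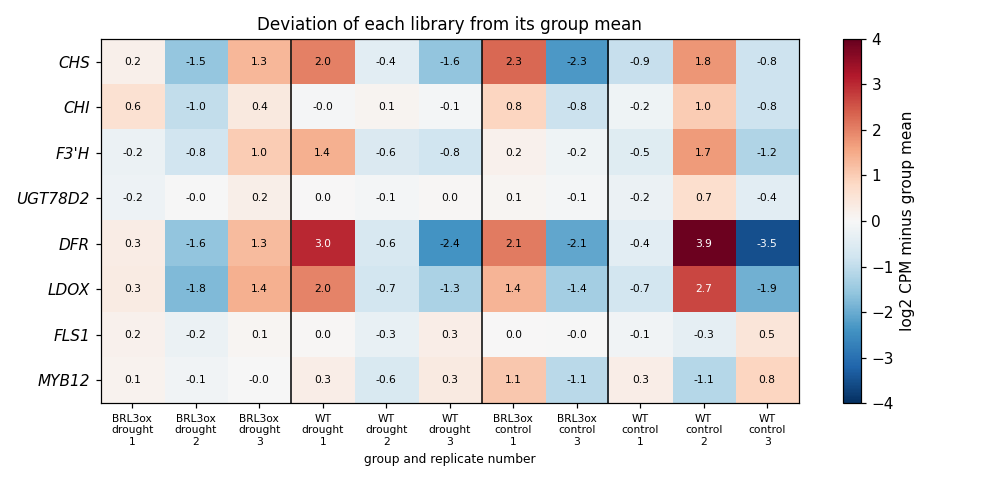
Deviation of log2 CPM of each library from the mean of its group, for the 8 genes tested (rows), with libraries by group and replicate number (columns). Red is above and blue below the group mean. CHS, F3'H, DFR and LDOX are above it together in WT drought replicate 1 and WT control replicate 2, and FLS1 stays within 0.5 throughout.

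The genes most like 3 of the members over the 11 libraries were picked by Pearson's r of log2 CPM among all genes tested. For DFR they were TT19 (0.991), the glutathione S-transferase of anthocyanin transport, LDOX (0.955), PAP1 (0.946), the phosphoribulokinase gene PRK (0.946), an enzyme of photosynthetic carbon fixation, and the anthocyanin malonyltransferase gene 5MAT (0.939). For CHS they were LDOX (0.933), HSP60-3A (0.901), DFR (0.880), TT19 (0.874) and AT3G06640 (0.873). For FLS1 they were NUDT12 (0.946), ABA3 (0.934), which acts in abscisic acid synthesis, AT1G60680 (0.925), MYB41 (0.925) and AT4G00200 (0.924). Of the 5 genes for DFR, 4 were flavonoid genes, and the list of FLS1 held no gene of the flavonoid lists. These lists held 8 members and 33 other genes among the 20718 tested. Finding none among 5 genes therefore says little about FLS1. TT19, PAP1 and 5MAT had 295, 168 and 100 reads over the 11 libraries, so their r with DFR rests on low counts.

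Because the photosynthesis genes differed between libraries of a group, the members were set against the photosynthesis score, the mean log2 CPM of the 10 photosynthesis genes, which was 1.32, 1.93 and 1.58 in BRL3ox drought roots, 2.83, 1.85 and 0.28 in WT drought roots, 2 and -0.43 in BRL3ox control roots and 2.35, 4.06 and -0.14 in WT control roots. In all, 8 relations were computed, with permutation tests of 100000 resamples, two-sided, and Benjamini-Hochberg (BH) adjusted values over the 8. DFR had Pearson's r = 0.88 (permutation p = 0.00053, BH 0.0042) and Spearman's rho = 0.77 (permutation p = 0.0073, BH 0.056). LDOX had r = 0.81 (permutation p = 0.0028, BH 0.011) and rho = 0.73 (permutation p = 0.014, BH 0.056). CHS had r = 0.75 (permutation p = 0.0084, BH 0.022) and rho = 0.56 (permutation p = 0.075, BH 0.15).

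The 2 libraries farthest from the median score were BRL3ox control replicate 3 and WT control replicate 2. Without them, r was 0.76 for DFR (permutation p = 0.016), 0.55 for LDOX (permutation p = 0.12) and 0.45 for CHS (permutation p = 0.23), so with 9 libraries the relation of LDOX and CHS with the score did not pass. It rests in part on these 2 libraries, which hold the lowest and the highest score. F3'H had r = 0.71 (permutation p = 0.015, BH 0.03), which was 0.58 without them (permutation p = 0.098), and rho = 0.56 (permutation p = 0.076, BH 0.15). UGT78D2 had r = 0.67 (permutation p = 0.024, BH 0.038), which was 0.26 without them (permutation p = 0.48), and rho = 0.48 (permutation p = 0.14, BH 0.21). CHI had r = 0.51 (permutation p = 0.11, BH 0.15) and rho = 0.45, FLS1 r = -0.36 (permutation p = 0.27, BH 0.31) and rho = -0.44, and MYB12 r = -0.01 (permutation p = 0.98) and rho = -0.18.

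Within groups, as deviations from the group means, r with the score was 0.91 for DFR, 0.79 for LDOX, 0.73 for CHS and F3'H, 0.67 for UGT78D2, 0.64 for CHI, -0.20 for MYB12 and -0.73 for FLS1. For r over the 11 libraries, without removing group means, the median of all 20718 genes was 0, and 0.468% of genes had an r over 0.8, DFR (0.88) and LDOX (0.81) among them. The score thus varied with DFR between libraries of the same genotype and water supply, though not among the 3 BRL3ox drought libraries, where the lowest DFR level stood beside the highest score. What part green tissue had in the DFR and LDOX reads was not tested.

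**Figure D4:**
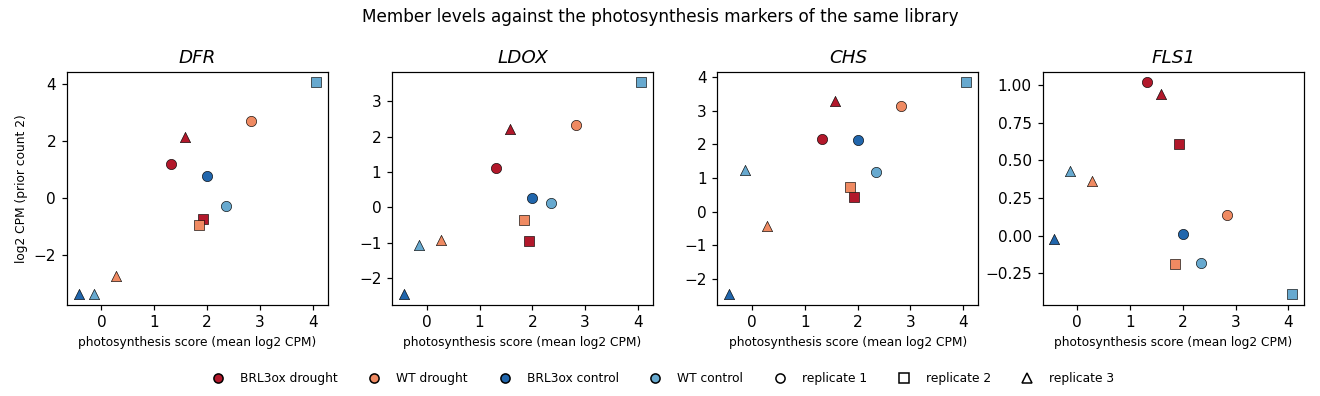
Log2 CPM (prior count 2) of DFR, LDOX, CHS and FLS1 against the photosynthesis score of the same library, 1 point per library, coloured by group with the replicate number as the symbol. The y axes differ. The DFR level is lowest in the 3 libraries of the lowest score and highest in WT control replicate 2, which has the highest (r = 0.88), while FLS1 has the 3 BRL3ox drought libraries on top at middle scores (r = -0.36).

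The other genes of the pathway were examined in lists chosen by function. Of 12 further anthocyanin and proanthocyanidin genes, 10 were tested. In each of the 5 comparisons 0 passed the thresholds, where 0.772 to 16.1% of all genes did. At an unadjusted p under 0.05 this was 1 gene in the WT drought response, with 33.6% of all genes. It was 0 in the other 4 comparisons, with 10.8 to 35.1% of all genes. TT19, which follows DFR in function, had 0.766, 0.231 and 1.73 CPM in BRL3ox drought roots, against 2.37, 0.312 and 0.054 CPM in WT drought roots, and 0.815 and 0 CPM in BRL3ox control roots, against 0.263, 7.08 and 0 CPM in WT control roots. The libraries with high and low values were those of DFR. Of the 10 genes tested, TT19 had an r with DFR of 0.99 and 5MAT of 0.94. The r was 0.78 and 0.75 for the anthocyanin glycosyltransferase genes UGT75C1 and UGT79B1. For the acyltransferase genes SCPL10 and 3AT2 it was 0.78 and 0.62. The other 4 did not follow DFR, with -0.01 for AHA10, -0.05 for 3AT1, -0.21 for BGLU10 and -0.44 for TT10, a laccase-like oxidase. The share of all genes with such an r with DFR was not determined, so these values describe the listed genes only.

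Among 22 further regulators, 15 were tested. PAP1, the activator of the late genes, had 0.676, 0.600 and 0.982 CPM in BRL3ox drought roots, against 1.21, 0.571 and 0 CPM in WT drought roots, and 0.719 and 0 CPM in BRL3ox control roots, against 0.210, 2.88 and 0 CPM in WT control roots. It was thus high where DFR was high (r = 0.95), and its partner TT8 had r = 0.84 with DFR. The other partners of the complex did not show this, with r of 0.12 for GL3, 0.08 for EGL3 and 0.25 for TTG1, and HY5, a light-signalling factor that also acts on CHS, had 0.05. All of these are descriptions over the 11 libraries, and PAP1 had 168 reads and TT8 53 reads in them. DFR, PAP1 and TT8 all had 0 reads in BRL3ox control replicate 3 and WT control replicate 3. All were highest in WT control replicate 2. TT8 also had 0 reads in BRL3ox drought replicate 1, where DFR had 2.16 CPM. The r of PAP1 and TT8 with DFR thus rest in part on counts of 0.

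Of the regulators, MYBL2, a repressor of anthocyanin genes, fell in drought in both genotypes. It had 0.406, 0.415 and 0.234 CPM in BRL3ox drought roots, against 1.44 and 0.928 CPM in BRL3ox control roots, and 0.555, 0.260 and 0.162 CPM in WT drought roots, against 0.840, 1.11 and 1.09 CPM in WT control roots. MYBL2 had 155 reads over the 11 libraries, and its 0.162 CPM in WT drought replicate 3 was 3 reads. It therefore dropped out of the setting with at least 10 counts in every sample. Drought and control did not overlap in either genotype, with drought lower, as for 28.9% of all genes in BRL3ox and 17.2% in WT roots. The log2 fold change was -1.73 ± 0.44 SE in BRL3ox roots (FDR 0.0191) and -1.61 ± 0.43 SE in WT roots (FDR 0.0262). Calls were lost without BRL3ox drought replicate 3 or BRL3ox control replicate 1 (FDR 0.0613 and 0.16) in BRL3ox roots, and without WT drought replicate 2 or 3 or WT control replicate 2 in WT roots (FDR 0.0869, 0.0888 and 0.0766) or in a model of only the 2 groups. EGL3, a bHLH partner of the anthocyanin complex that also acts in epidermal patterning, had 10.09, 8.63 and 12.7 CPM in BRL3ox drought roots, against 19.6 and 16.75 CPM in BRL3ox control roots, and fell by 0.80 ± 0.22 SE (log2, FDR 0.0273). The FDR was 0.0727 to 0.171 without BRL3ox drought replicate 1 or 2 or either BRL3ox control replicate. In all, 2 of 15 regulators fell and 0 rose in BRL3ox drought, with 16.1% of all genes called, and 1 of 15 fell and 0 rose in WT drought, with 12.4% called. Between BRL3ox and WT, 0 of 15 were called in drought roots, with 3 at an unadjusted p under 0.05 against 23.1% of all genes, and 0 of 15 in control roots, with 0 under 0.05 against 16%. The 3 were TTG2 (log2 0.39 ± 0.13 SE, FDR 0.0995), HY5 (-0.47 ± 0.17 SE, FDR 0.124) and CPC (-0.62 ± 0.22 SE, FDR 0.125). The other regulators tested and called in no comparison were HYH, MYB4, MYB7, LBD37, LBD38 and LBD39.

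The flavonol list of 12 genes, of which 8 were tested, held the genes with the clearest changes. FLS5, a member of the flavonol synthase family whose part in flavonol synthesis is less clear than that of FLS1, had 81.0, 103.7 and 87.2 CPM in BRL3ox drought roots, against 263 and 297 CPM in BRL3ox control roots. In WT roots it had 87.7, 90.8 and 82.4 CPM in drought, against 194, 168 and 172 CPM in control samples. Drought lay below control in all samples of both genotypes, as for 28.9% of all genes in BRL3ox and 17.2% in WT roots, and the BRL3ox control samples lay above the WT control samples, as for 18.2% of all genes. FLS5 fell in drought by 1.63 ± 0.12 SE (log2) in BRL3ox roots (FDR 4.39e-05) and by 1.03 ± 0.11 SE in WT roots (FDR 0.000395), and both calls were kept with every setting and every library left out.

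FLS5 was 1.58-fold higher in watered BRL3ox than in watered WT roots (log2 0.66 ± 0.12 SE, FDR 0.043), the 1 of 8 flavonol genes called there, where 0.772% of all genes were. That call was kept only without BRL3ox drought replicate 2, WT drought replicate 1 or WT control replicate 2, and was lost without any other library (FDR 0.0552 to 0.326) and in a model of only the 2 groups. In drought roots the difference was 0.06 ± 0.11 SE (FDR 0.786). The drought responses of the genotypes differed by -0.60 ± 0.16 SE, with an unadjusted p of 0.00369 by edgeR's quasi-likelihood test and an FDR of 0.283, which did not pass. FLS5 did not vary with DFR (r = -0.24) or the photosynthesis score (r = -0.13).

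CHIL, a chalcone isomerase-like protein that assists CHS and CHI, rose in drought in both genotypes. It had 7.93, 5.77 and 5.94 CPM in BRL3ox drought roots, against 2.87 and 2.36 CPM in BRL3ox control roots, and 5.55, 3.95 and 3.94 CPM in WT drought roots, against 2.68, 3.10 and 2.78 CPM in WT control roots. The groups did not overlap in either genotype, with drought higher, as for 27.6% of all genes in BRL3ox and 17.2% in WT roots, and the BRL3ox drought samples all lay above the WT drought samples, as for 14.0% of all genes. CHIL rose by 1.32 ± 0.22 SE (log2) in BRL3ox roots (FDR 0.00301), a call kept with every setting and library left out, and by 0.65 ± 0.20 SE in WT roots (FDR 0.0441). The WT call was lost in 10 of 11 fits with a library left out (FDR up to 0.125). Between the genotypes CHIL differed by 0.55 ± 0.19 SE in drought roots (FDR 0.119), and the responses differed by 0.67 ± 0.30 SE (unadjusted p of 0.0453 by edgeR's quasi-likelihood test, FDR 0.452), so neither passed.

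FLS3, another flavonol synthase family gene, rose in WT drought roots by 0.61 ± 0.18 SE (log2, FDR 0.0417). It had 48.6, 62.1 and 83.8 CPM in WT drought roots, against 47.1, 42.2 and 37.9 CPM in WT control roots, and the call was lost in 8 of 11 fits with a library left out. Of the 4 entry genes PAL1, PAL2, C4H and 4CL3, PAL1 rose in WT drought roots by 0.67 ± 0.19 SE (FDR 0.0319), a call lost in 6 of those 11 fits, with 537, 892 and 940.4 CPM in WT drought roots, against 466, 461 and 562 CPM in WT control roots. In BRL3ox roots, 0 of 4 passed, where 16.1% of all genes did. There 1 of 4 had an unadjusted p under 0.05, with 35.1% of all genes. PAL1 had 201 to 229 CPM per kilobase of exon in BRL3ox drought roots, against 144 to 151 in BRL3ox control roots. FLS3, not called in BRL3ox roots, had 44.0 to 60.0 in drought, against 40.0 to 41.9 in control samples. Both genes thus lay higher in drought in BRL3ox roots too, without overlap, as for 27.6% of all genes. In all, the flavonol list had 1 gene that rose and 1 that fell in the BRL3ox drought response, of 8 tested, where 16.1% of all genes were called, and 2 that rose and 1 that fell in the WT response, where 12.4% were. UGT89C1 and UGT73C6, enzymes of flavonol glycosylation, lie under opposite-strand exons for at least 90% of their exonic bases, as F3H does, and did not pass the filter.

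**Figure D5:**
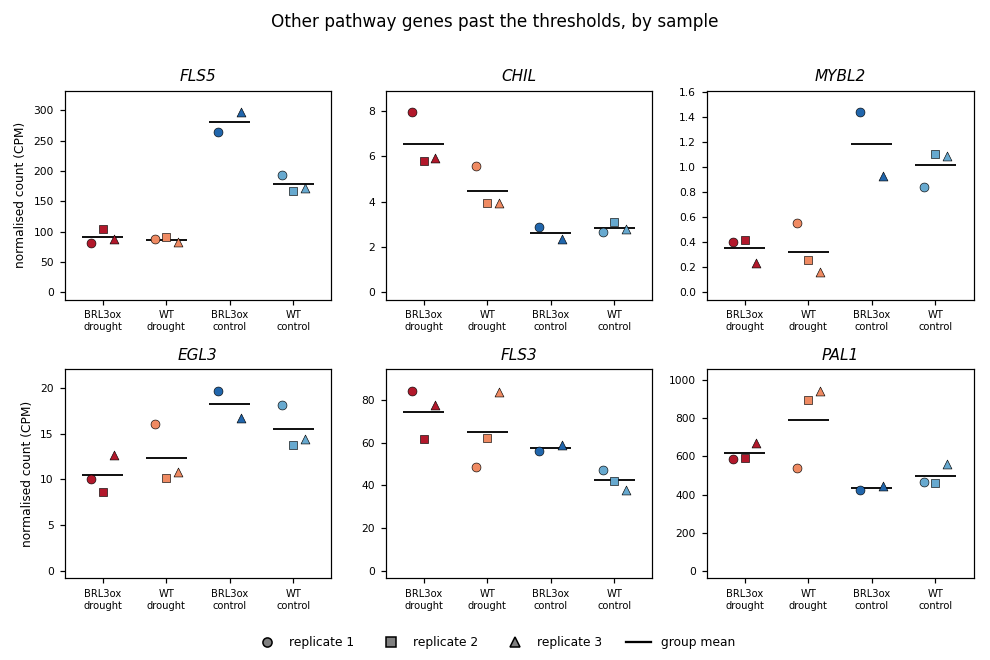
Normalised counts (CPM, linear axis) of the 6 other pathway genes that passed the thresholds in at least 1 comparison, by sample and group, with the replicate number as the symbol and the group mean as a bar. The axes differ between genes. FLS5 and MYBL2 are lower and CHIL is higher in drought than in control samples of both genotypes, and BRL3ox control samples stand above WT control samples for FLS5.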

How the data were processed

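RNAseq libraries of 11 root samples were analysed, with groups taken from the labels. The files deposited hold raw counts, which the authors made from stranded mRNA libraries by trimming 5 bp from 50-bp single-end reads, mapping them with HISAT2 2.1.0 to TAIR10 and counting with HTSeq 0.9.1, without normalization, per the labels and the study's methods. Counting options are not given in the sources used here. HTSeq's 5 summary classes were left out of library sizes. Of 33341 identifiers, 33056 occur in the TAIR10.1 annotation used for coordinates and sequences.

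Genes were filtered with filterByExpr by group and normalized by TMM. All 11 samples entered 1 quasi-likelihood model with a coefficient for each group (edgeR 4.0.16, limma 3.58.1, R 4.3.3), with 7 residual and 3.48 prior degrees of freedom. Benjamini-Hochberg adjustment covered all 20718 genes. Standard errors were taken as the log2 fold change over the square root of F. CPM used TMM-scaled library sizes, and log2 CPM a prior count of 2. Intervals on 0 reads cover counting error only, since the reads carry no molecular identifiers. The labels do not say whether replicates were grown or harvested apart, so p-values measure the spread between these samples.

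The members and lists were chosen with earlier results of these data known. All members are named, as are the other pathway genes called in any comparison, the regulators tested, and the 5 genes most like CHS, FLS1 and DFR. The other anthocyanin genes, FLS4, the single root markers and the single touch and wound genes were named after their values were seen. Alternatives were RLE normalization, DESeq2 1.42.0, edgeR's likelihood ratio test, other filters and fold thresholds, a model of 2 groups, the replicate number as a block, the photosynthesis score as a covariate, and leaving out each library.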

Additional observations from a re-analysis of the deposited data

How the results depend on the processing

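The depth limits these results: most members had under 100 reads in most samples, and MYB111 and F3H too few to test. RLE normalization and no filter on low counts changed no direction or call of the 8 genes.

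The number of members called in the BRL3ox drought response, 0 as reported, was 1 (FLS1) with edgeR's likelihood ratio test, at least 10 counts in every sample, the model of 2 groups, the replicate block and the photosynthesis covariate, and 0 to 1 with each library left out. In the other 4 comparisons it was 0 under every alternative run. For the other flavonoid and entry genes, the number called between BRL3ox and WT control roots was 1 (FLS5) as reported. It was 2 (FLS4 and FLS5) with DESeq2, the likelihood ratio test, the replicate block and the covariate. It was 0 with the model of 2 groups and with a fold threshold of 2, and 0 to 2 with a library left out. In drought roots it was 0 as reported, 1 (PAL2) with DESeq2, the likelihood ratio test and the covariate, and 0 to 1 with a library left out. In the WT drought response it was 5 as reported, 8 with DESeq2 and with no fold threshold, 2 with a fold threshold of 2, 1 with the model of 2 groups, and 1 to 8 with a library left out. In the BRL3ox drought response it was 4 as reported, 7 with the covariate and 2 to 5 with a library left out, and for the interaction 0 as reported, 1 (FLS5) with DESeq2 and the likelihood ratio test, and 0 to 1 with a library left out.

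The median log2 fold change of the members between BRL3ox and WT control roots was -1.15 as reported, 0.02 with at least 10 counts in every sample, which leaves fewer genes, -0.13 with the covariate and -2.54 to 0.01 with a library left out. With a library left out it was -0.45 to 0.79 between BRL3ox and WT drought roots, 0.24 to 2.27 and -1.16 to 0.65 in the drought responses of BRL3ox and WT roots, and 0.14 to 2.33 for the interaction.

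With the covariate, the direction turned for F3'H (0.17), FLS1 (-0.18) and DFR (1.85) between BRL3ox and WT control roots, for DFR (1.42) and LDOX (0.26) in the WT drought response, and for F3'H (-0.32) and UGT78D2 (-0.05) in the interaction; the cause was not tested. None of these passed a threshold. With the replicate block it turned for FLS1 between BRL3ox and WT control roots (-0.14). Same-numbered samples correlated by 0.15 on average in their deviations from the group means (-0.088 to 0.412 over 15 pairs), and 11 pairs were over 0.1, against 5 of 30 pairs of different numbers. The labels do not say what a number shares, and not every same-numbered pair was over 0.1, so the block was kept as an alternative. On average, 11 of 11 samples correlated more with samples of their own number than with those of other numbers. The deviations sum to 0 within a group, so these counts of pairs and samples are not independent of each other. With WT control replicate 3, for example, BRL3ox control replicates 3 and 1 had r of 0.412 and -0.412. The counts therefore do not show what a number shares. The block moved the FLS1 response of BRL3ox roots to 1.09 (log2, FDR 0.0228 by edgeR's quasi-likelihood test).

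With a library left out, log2 fold changes between BRL3ox and WT control roots were -9.93 to 1.07 for DFR, -6.14 to -0.06 for CHS, -5.61 to -0.26 for LDOX, -3.61 to -0.15 for MYB12, -0.75 to 1.14 for CHI, -1.68 to 0.23 for F3'H, -0.18 to 0.31 for FLS1 and -0.56 to 0.07 for UGT78D2. Between BRL3ox and WT drought roots they were -0.39 to 2.2 for CHS, -0.69 to 0.01 for CHI, -1.21 to 0.77 for F3'H, -0.77 to 3.26 for DFR, -0.70 to 2.07 for LDOX and -0.26 to 0.22 for MYB12. In the BRL3ox drought response they were -1.26 to 0.52 for CHI, -0.87 to 0.24 for F3'H, 0.26 to 5.82 for CHS, 0.51 to 8.59 for DFR, 1.09 to 4.71 for LDOX and 0.11 to 3.57 for MYB12. In the WT drought response they were -2.51 to 0.73 for CHS, -0.20 to 0.89 for CHI, -2.12 to 0.57 for F3'H, -0.03 to 0.45 for FLS1, -0.13 to 0.50 for UGT78D2, -4.59 to 2.6 for DFR, -2.96 to 1.54 for LDOX and -0.52 to 0.50 for MYB12. For the interaction they were -1.50 to 0.39 for CHI, -0.68 to 2.01 for F3'H, -0.21 to 0.42 for UGT78D2, -1.05 to 9.96 for DFR, 0.54 to 6.62 for CHS, 0.48 to 5.83 for LDOX and 0.17 to 3.64 for MYB12. WT control replicate 2, WT drought replicate 1 and BRL3ox control replicate 1 gave most of the extremes.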
